A study of Mus musculus with 24 samples.

Results

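The proteasome transcripts of the mouse cortical collecting duct were described across 24 microdissected tubules. Members were the genes whose symbol is Psma, Psmb, Psmc, Psmd, Psme, Psmf or Psmg followed only by a number, which gave 48 of the 55416 genes in the deposited table. They comprised 8 alpha subunits, 7 constitutive beta subunits, 4 beta subunits of the immunoproteasome and thymoproteasome, 9 base subunits, 8 lid subunits, 5 activators or regulators and 7 assembly chaperones.

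The libraries came from 4 MUT mice, in which beta-catenin carries Thr551Ala and Ser552Ala per the labels, and from 4 WT mice, with 3 tubules per mouse and 1 tubule per library. All 8 animals were male C57BL/6 mice at 10 weeks of age. Both genotypes carry the entry vehicle for treatment although the protocol describes no treatment, and the table's own legend names only the serine change. The labels do not say in which cells the altered beta-catenin is made or whether the genotypes were littermates. The comparison asks whether the transcript levels of the CCD depend on these beta-catenin residues.

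The proteasome is the protease that degrades proteins tagged with ubiquitin, and beta-catenin itself is removed this way when Wnt signalling is off. Rings of alpha subunits gate the entrance to a barrel of beta subunits, of which Psmb5, Psmb6 and Psmb7 cut peptide bonds. A cap made of a base, whose ATPases unfold the substrate, and a lid, which removes ubiquitin, sits on the barrel. In cells exposed to interferon, Psmb8, Psmb9 and Psmb10 take the places of Psmb5, Psmb6 and Psmb7, forming the immunoproteasome that supplies peptides for MHC class I. In the collecting duct, degradation after ubiquitination is known to limit the water channel aquaporin 2 and the epithelial sodium channel. Whether the proteasome carries out that degradation was not examined here.

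The promoters of catalytic subunits are shown because constitutive and inducible subunits parted in the results that follow. The stretches are the 250 bases before the start of Psmb5, Psmb6 and Psmb8, and for Psmb9 the 225 bases that separate its start from that of Tap1, a subunit of the MHC class I peptide transporter that lies head to head with it. They come from RefSeq on GRCm38.p6, a different build from the GRCm39 named in the submitters' notes, at chr14:54617996-54618245 (minus strand) for Psmb5, chr11:70525107-70525356 (plus strand) for Psmb6, chr17:34197945-34198194 (plus strand) for Psmb8 and chr17:34187331-34187555 (minus strand) for Psmb9. Capitals mark an antioxidant response element (TGACNNNGC, bound by NRF1, which raises proteasome genes when degradation fails) in Psmb5 and Psmb6. In Psmb8 they mark a gamma-activated site (TTCNNNGAA, a motif of genes that respond to interferon gamma), and in Psmb9 a CCAAT box on the opposite strand.
Psmb5: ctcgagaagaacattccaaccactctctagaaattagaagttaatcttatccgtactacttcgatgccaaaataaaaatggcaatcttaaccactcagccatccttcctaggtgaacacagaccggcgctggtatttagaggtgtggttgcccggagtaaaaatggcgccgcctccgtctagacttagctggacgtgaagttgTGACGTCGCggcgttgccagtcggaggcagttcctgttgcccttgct
Psmb6: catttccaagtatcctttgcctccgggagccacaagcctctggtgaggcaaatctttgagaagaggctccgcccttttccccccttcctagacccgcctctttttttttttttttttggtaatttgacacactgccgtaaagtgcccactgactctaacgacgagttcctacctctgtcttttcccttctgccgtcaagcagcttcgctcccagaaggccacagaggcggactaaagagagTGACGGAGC
Psmb8: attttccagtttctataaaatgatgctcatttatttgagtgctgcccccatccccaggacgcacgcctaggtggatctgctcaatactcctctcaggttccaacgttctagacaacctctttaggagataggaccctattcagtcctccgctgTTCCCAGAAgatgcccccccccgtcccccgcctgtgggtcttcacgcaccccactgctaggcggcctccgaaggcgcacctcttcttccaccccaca
Psmb9: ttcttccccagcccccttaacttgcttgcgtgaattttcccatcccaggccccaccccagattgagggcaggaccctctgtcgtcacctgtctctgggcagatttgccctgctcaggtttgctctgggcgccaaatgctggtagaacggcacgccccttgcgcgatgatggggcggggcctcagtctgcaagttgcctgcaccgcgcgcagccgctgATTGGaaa
Promoters were found for 40 members, and motifs were searched on both strands. The antioxidant response element was found for 5 of the 40 members (12.5%), against 11.5% of all 27025 genes with a promoter, searched over the same length. A gamma-activated site was found for 2 (5%), Psmb8 and Psmg1, against 8.13% of those genes. The interferon-stimulated response element (2 runs of GAAA separated by any 2 bases) was found for 3 (7.5%), Psmb3, Psmd4 and Psmd9, against 3.46%. The CCAAT box was found for 14 (35%), against 37.5%. A match is a run of letters and not a shown binding site. On chromosome 17 the order of neighbours was Psmb9, Tap1, Psmb8, Tap2.

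Values are TPM, which is scaled for transcript length and library total, so levels can be compared between genes. TPM keeps no sequencing depth, the depth is therefore unknown, and no counting interval is given. The genes at 1 TPM or more numbered 13572 to 16091 per library. The collecting duct identity was seen in principal cell markers such as Aqp2, at a mean of 16453 TPM, and intercalated cell markers such as Slc26a4, at 1680 TPM. Markers of other cells differed between libraries. The 5 erythrocyte markers summed to 0.62 to 203 TPM in MUT tubules and 1.48 to 24918 TPM in WT tubules. The highest sum was that of tubule 2 of WT mouse 3. All 5 were lower in MUT at an unadjusted limma p under 0.05, against 4.6% of all tested genes with such a p in either direction. Their lowest adjusted limma p was 0.869. The 10 proximal tubule markers summed to 16.2 to 1279 TPM in MUT tubules and 19.4 to 5588 TPM in WT tubules. The 6 thick ascending limb markers summed to 869 to 1435 TPM in MUT tubules and 699 to 5761 TPM in WT tubules. These 6 include Kcnj1, which principal cells also express, at a mean of 1019 TPM. Without Kcnj1 the thick ascending limb sums were 12.2 to 412 TPM in MUT tubules and 10.8 to 4798 TPM in WT tubules. In 6 libraries, 1 from MUT and 5 from WT mice, at least 1 of these lists reached 1000 TPM, with Kcnj1 left out of the thick ascending limb list. The log2 differences and pair ratios of the inducible subunits are also given without these libraries. That leaves WT mouse 3 with tubule 3 alone and WT mouse 4 with tubule 2 alone, each weighted like the other mice.

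Proteasome transcripts held a narrow share of the RNA and a similar order of abundance in all tubules. Summed members made up 0.753% ± 0.0150 of all TPM in MUT mice and 0.762% ± 0.0180 in WT mice (SD, n = 4 each), with single tubules between 0.709% and 0.815%. Psmb6, the constitutive caspase-like subunit, was the most abundant member at a mean of 593 TPM over all libraries, followed by Psma7, an alpha subunit, at 414 TPM and Psme1, an activator subunit, at 334 TPM. Psmb6 ranked first and Psma7 next among the members other than Psmb8 to Psmb10 in 24 of 24 tubules, and Psme4 ranked last in 24 of 24. These 43 members are called constitutive here, although they include Psme1 and Psme2 of the interferon-inducible activator. Over the 43, Spearman's rho between any 2 tubules was 0.966 to 0.994. The median was 0.983 over 276 pairs of tubules, which share the genes' lengths and annotation. Mean levels of these members span 39.8-fold, and no other set of genes was compared.

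Subunits that stand in equal number in the particle differed in transcript level. In the alpha ring, which holds each subunit once per ring, levels ran from 70.6 TPM for Psma5 to 414 TPM for Psma7, a 5.87-fold range, and Psma5 was the lowest alpha subunit in 24 of 24 tubules. Constitutive beta subunits ranged 4.61-fold, from 129 TPM for Psmb1 to 593 TPM for Psmb6. Base members ranged 3.67-fold, from 83.4 TPM for Psmc6, an ATPase, to 306 TPM for Psmc3, also an ATPase. Lid members ranged 2.73-fold, from 92.7 TPM for Psmd12 to 253 TPM for Psmd8, both structural subunits. These ranges cover only genes of the symbol rule, and the lid subunit Sem1, outside it, averaged 80.2 TPM.

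Regulators and helpers were mostly lower than the subunits of the particle. Psme4, which encodes the large single-chain activator, was the lowest tested member at 14.9 TPM, while Psme1 and Psme2, the partners of the interferon-inducible activator ring, were at 334 and 187 TPM. Psme2 is uncertain, because its near copy Psme2b had 12.7 TPM and shared reads may have been split between them. The assembly chaperones lay within 2.05-fold of each other, from 48.3 TPM for Psmg1, which helps build the alpha ring, to 99.0 TPM for Psmd5, which helps build the base. Pseudogene copies listed under the symbols of Psmb5, Psmb6, Psmb7 and Psma5 averaged at most 1.44 TPM over the libraries and reached at most 4.34 TPM in 1 library. Psma8, the testis-type alpha subunit, at a mean of 0.210 TPM, and Psmb11, the thymus-type beta subunit, at 0.147 TPM, did not reach the mean of 1 TPM needed for testing, which left 46 members tested.

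**Figure D1:**
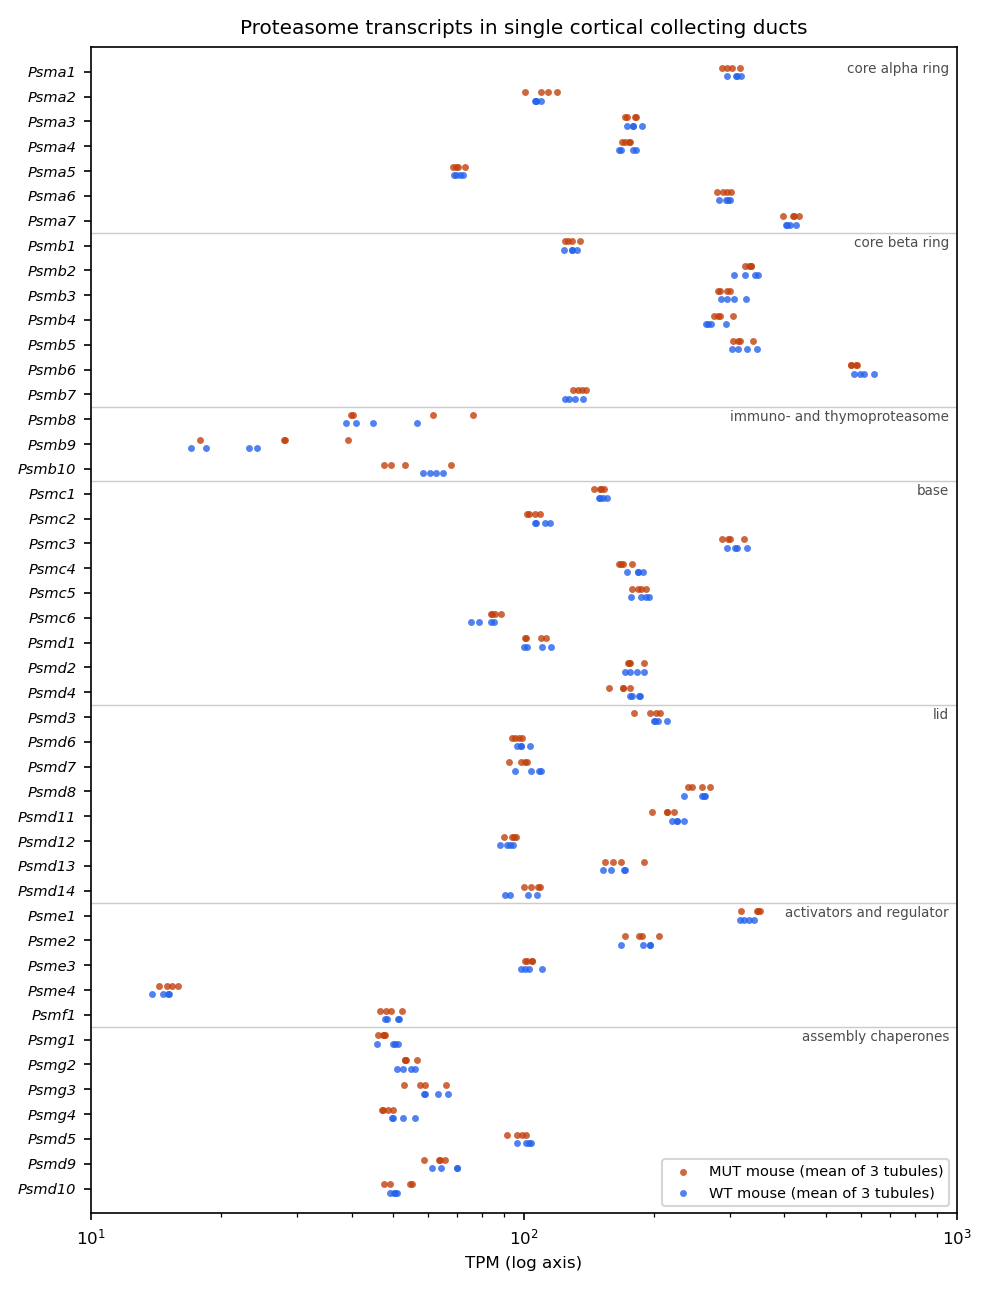
TPM (log axis) of the 46 tested members by role, each point the mean of 3 tubules of 1 mouse, with 4 MUT mice above 4 WT mice in each row. Psmb6 lies furthest right at a mean of 593 TPM and Psme4 furthest left at 14.9 TPM, and the points of most genes lie close together apart from those of Psmb8, Psmb9 and Psmb10.

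No proteasome transcript was called different between MUT and WT tubules. None of the 46 tested members had an adjusted p under 0.05 in limma over 15013 genes, where 0% of all tested genes were called, and the lowest adjusted p of a member was 0.980. None had an unadjusted p under 0.05, against 4.6% of all tested genes, and up to 4 members did under other settings. Of the 46 members, 17 were higher and 29 lower in MUT mice, and 54.3% of all tested genes were higher. This split moved with scaling, to 12 higher under median-ratio scaling and 22 under quantile normalization. Their median log2 difference, MUT minus WT, was -0.01, against 0.01 over all tested genes.

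By role, 2 of 7 alpha, 4 of 7 constitutive beta, 2 of 3 inducible beta, 1 of 9 base, 3 of 8 lid, 3 of 5 activator or regulator and 2 of 7 chaperone transcripts were higher in MUT mice, and none passed the threshold. An absolute log2 difference of 0.2 or more was seen in 1 member, Psmb9, and in 17.5% of all tested genes. No member had all MUT mice above all WT mice, a pattern of 1.94% of tested genes. All MUT mice lay below all WT mice in 2 members, Psmd4 and Psmg4, and in 1.08% of tested genes.

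Psmd4 encodes a ubiquitin receptor of the cap. It was at 169.6, 175.8, 157.2 and 169.9 TPM in MUT mice 1 to 4, against 176.0, 185.0, 178.1 and 185.6 TPM in WT mice 1 to 4. The groups came within 1 TPM of each other, and the log2 difference of -0.10 (SE 0.05) had an unadjusted limma p of 0.062. Psmg4, an alpha-ring chaperone, was at 49.947, 48.673, 47.177 and 47.023 TPM in MUT mice, against 56.187, 52.477, 49.570 and 50.003 TPM in WT mice. Its groups were apart on the log2 means but met on the TPM means, since MUT mouse 1 was above WT mouse 3, and the log2 difference was -0.11 (SE 0.06). Without the 6 libraries high in other cell types it was -0.18 (SE 0.05), with an adjusted limma p of 0.903.

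Besides the inducible Psmb9 and Psmb10, 4 more members were named for small p-values. Psmc4, an ATPase of the base, averaged 170 ± 5.24 TPM in MUT mice and 182 ± 6.43 TPM in WT mice (SD, n = 4 each), a log2 difference of -0.10 (SE 0.05). MUT mouse 2 at 177.6 TPM lay above WT mouse 4 at 173.4 TPM, so the groups overlapped. Psmc6, another ATPase, averaged 85.7 ± 2.03 TPM in MUT mice and 81.0 ± 4.68 TPM in WT mice, a difference of 0.09 (SE 0.05). The Psmc6 difference was 0.15 (SE 0.07) without the 6 libraries and 0.06 (SE 0.05) without WT mouse 2. Psmd14, the deubiquitinase of the lid, averaged 105 ± 4.05 TPM in MUT mice and 98.2 ± 7.89 TPM in WT mice, a difference of 0.10 (SE 0.06), or 0.07 (SE 0.06) without WT mouse 4. For Psme1 the averages were 341 ± 15.1 TPM in MUT mice and 328 ± 11.0 TPM in WT mice, a difference of 0.06 (SE 0.05). The Psme1 difference was 0.03 (SE 0.07) without the 6 libraries and 0.09 (SE 0.04) without MUT mouse 3. In each of these genes the groups overlapped.

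**Figure D2:**
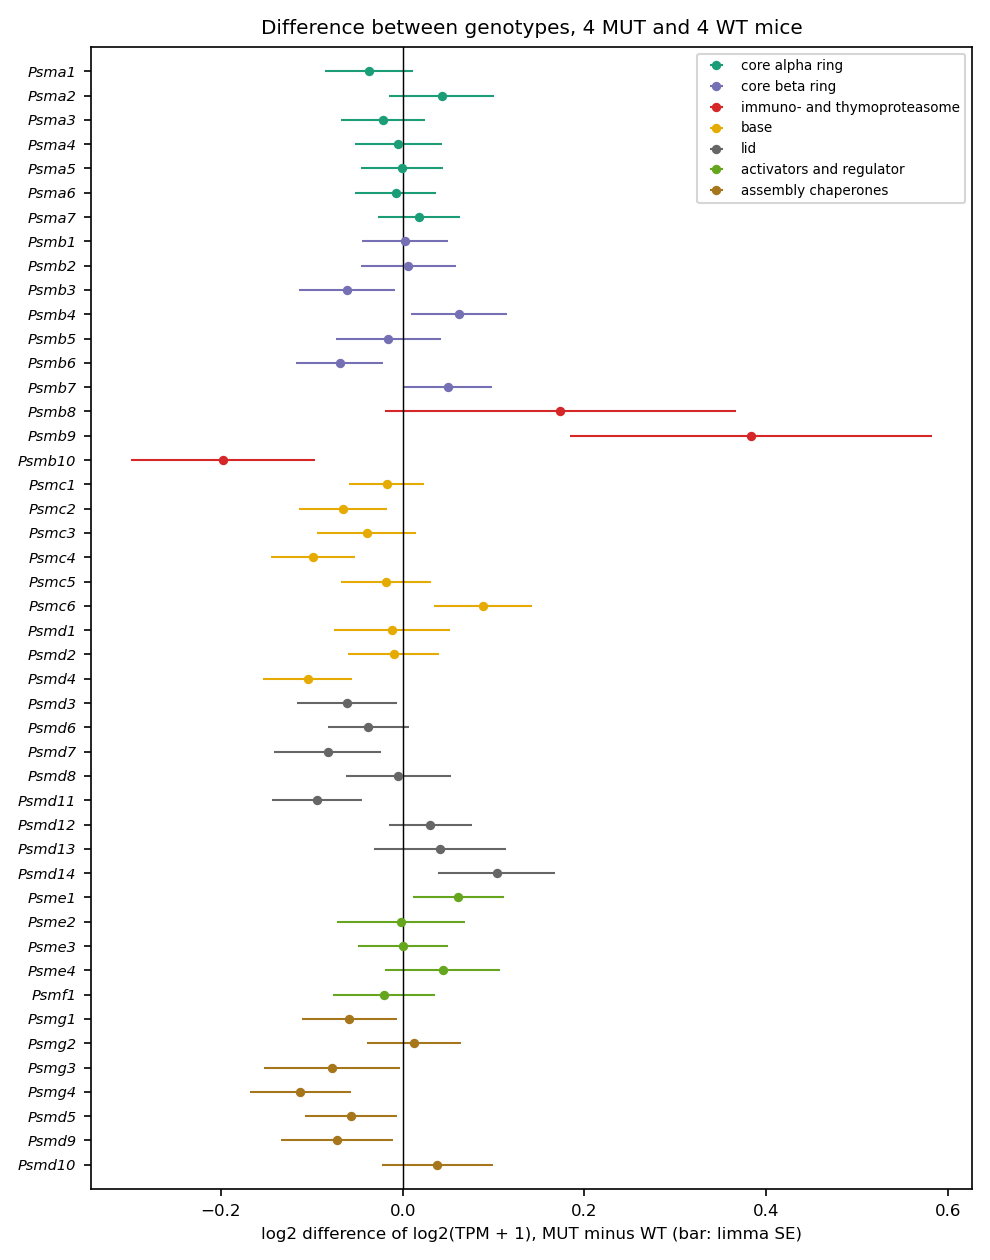
Log2 difference of log2(TPM + 1), MUT minus WT, of the 46 tested members by role, with the limma standard error over 4 MUT and 4 WT mice. Most members lie within 0.1 of 0, and Psmb9 at 0.38 and Psmb10 at -0.20 lie furthest out, with the widest errors beside Psmb8.

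The pathway around the proteasome likewise held no gene past the threshold. Of 11 tested partners that bind or assemble the proteasome, 6 were higher and 5 lower in MUT mice, with Pomp, the maturation factor of the barrel, at -0.06 (SE 0.06) and Sem1, a small lid subunit, at 0.13 (SE 0.11). Among 10 genes of the NRF1 route, which tunes proteasome transcription, 5 were higher and 5 lower. The most abundant of them, Nfe2l2, which encodes the oxidative stress factor NRF2, averaged 310 ± 43.6 TPM in MUT mice and 307 ± 59.1 TPM in WT mice. Mafg, a small partner of such factors, differed by -0.24 (SE 0.14), and Sel1l, of the endoplasmic reticulum degradation complex, by -0.06 (SE 0.05).

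Ubiquitin genes and the beta-catenin ligase gave like values. Of 13 genes for ubiquitin supply and shuttling, 8 were higher and 5 lower, with the ubiquitin genes Ubb at -0.11 (SE 0.08) and Rps27a at 0.12 (SE 0.08). Of 8 genes of the ligase that marks beta-catenin, or that counter it, 6 were higher and 2 lower. Skp1, its adaptor, was the most abundant at 578 ± 11.2 TPM in MUT mice and 576 ± 48.7 TPM in WT mice, and Rbx1, its RING subunit, differed by 0.08 (SE 0.07). Usp7, a deubiquitinase, averaged 27.2 ± 7.22 TPM in MUT mice and 35.6 ± 5.64 TPM in WT mice, a log2 difference of -0.40 (SE 0.18) with an unadjusted limma p of 0.054. In all 4 of these lists 0 genes had an unadjusted limma p under 0.05, against the 4.6% of all tested genes.

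Constitutive members varied little between mice and between tubules of 1 mouse, and the inducible catalytic subunits varied most. The SD over the 8 mouse means of log2(TPM + 1) had a median of 0.064 over the 46 members, against 0.157 over all tested genes and 0.120 over the 8842 genes at 10 TPM or more, a level that all 46 reach. The pooled SD over tubules of 1 mouse had a median of 0.084 over the members, against 0.190 and 0.139. The SD between mice was below the median of all tested genes in 43 of 46 members, and below that of the genes at 10 TPM or more in the same number. In the lowest 10% of the SDs of genes at 10 TPM or more lay 23 members.

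The smallest SD between mice was that of Psmc1, an ATPase of the base, at 0.029, and 0.102% of the genes at 10 TPM or more had a smaller one. Psmc1 was at 150.2, 153.1, 145.0 and 151.2 TPM in MUT mice, against 148.9, 150.2, 155.5 and 152.7 TPM in WT mice. Next came the alpha subunits Psma5 at 0.032, Psma6 at 0.038 and Psma7 at 0.040. The coefficient of variation over 24 tubules was 4.52% to 12.3% in the 43 constitutive members, with Psmg3, an alpha-ring chaperone, at the top.

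The members above the all-gene median were Psmb8, Psmb9 and Psmb10. Psmb9 had an SD between mice of 0.372, which 95.1% of the genes at 10 TPM or more stayed below, and Psmb8 had 0.317, which 93.6% stayed below. Psmb10, at 0.183, was nearer the middle, with 78.6% below it. Within mice the SD was 0.564 for Psmb8, 0.473 for Psmb9 and 0.279 for Psmb10, in each case larger than between mice, whose means each average 3 tubules. The fourth largest SD between mice was that of Psmg3, at 0.109.

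**Figure D3:**
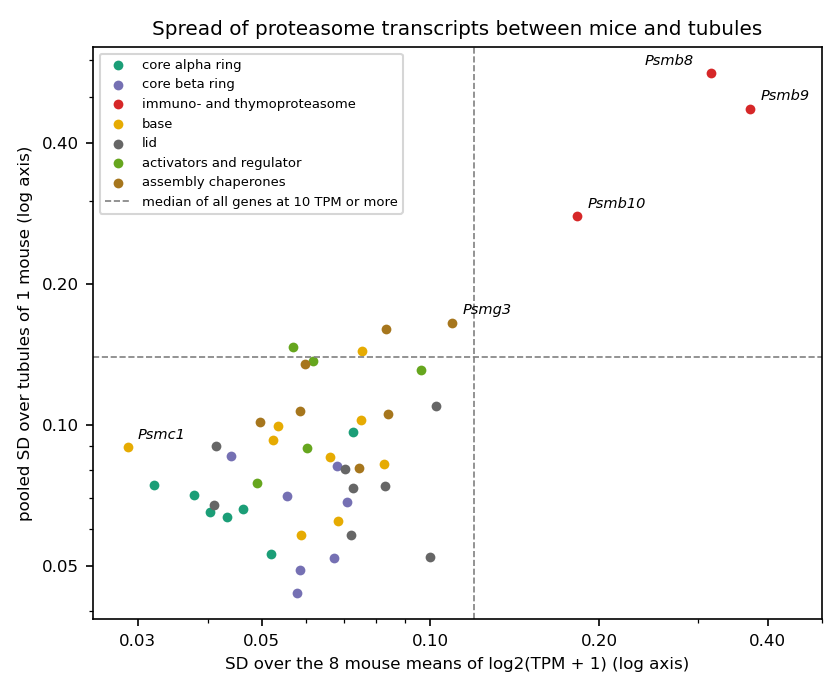
SD over the 8 mouse means (horizontal, log axis) against the pooled SD over tubules of 1 mouse (vertical, log axis), both of log2(TPM + 1), 1 point per tested member coloured by role, with dashed lines at the medians of all genes at 10 TPM or more, 0.120 and 0.139. Psmb8, Psmb9 and Psmb10 lie at the upper right, apart from the other 43 members.

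Each inducible subunit was lower than the constitutive subunit whose place it takes. The median over tubules of the ratio of Psmb5 to Psmb8, the chymotrypsin-like pair, was 7.09-fold, that of Psmb6 to Psmb9, the caspase-like pair, 26.1-fold, and that of Psmb7 to Psmb10, the trypsin-like pair, 2.32-fold. As a share of its pair, Psmb8 made up 14.5% ± 4.14 in MUT mice and 12.4% ± 2.32 in WT mice (SD, n = 4 each). Psmb9 made up 4.64% ± 1.40 in MUT mice and 3.31% ± 0.648 in WT mice, and Psmb10 28.7% ± 3.44 in MUT mice and 32.2% ± 1.59 in WT mice. The highest share of all 3 pairs was in tubule 1 of MUT mouse 1, at 32.0%, 9.59% and 39.6%.

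No pair's log2 ratio passed the test between genotypes. The 8 mice were permuted exactly (two-sided), and with 70 arrangements the p-value cannot go below 0.0286. The log2 ratio of Psmb8 to Psmb5 was 0.19 higher in MUT mice (exact p = 0.457, adjusted over 3 pairs 0.457). Leaving out 1 mouse moved it between 0.03, without MUT mouse 1, and 0.32, without WT mouse 1. It was 0.05 without tubule 1 of MUT mouse 1 and 0.50 without the 6 libraries high in other cell types (exact p = 0.143, adjusted 0.214). The log2 ratio of Psmb9 to Psmb6 was 0.45 higher in MUT mice (exact p = 0.143, adjusted 0.214). It lay between 0.29, without MUT mouse 1, and 0.63, without MUT mouse 3, at 0.36 without tubule 1 of MUT mouse 1 and at 0.76 without the 6 libraries (exact p = 0.057, adjusted 0.171). The log2 ratio of Psmb10 to Psmb7 was lower in MUT mice, with a difference of -0.25 (exact p = 0.114, adjusted 0.214). It lay between -0.36, without MUT mouse 1, and -0.20, without WT mouse 1. Without tubule 1 of MUT mouse 1 it was -0.30 (exact p = 0.0286, adjusted 0.0857), and without the 6 libraries -0.15 (exact p = 0.343, adjusted 0.343).

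Among single mice, MUT mouse 1 stood highest for all 3 inducible subunits. Psmb8 was at 76.4, 40.4, 39.9 and 61.6 TPM in MUT mice 1 to 4, against 56.8, 38.8, 41.0 and 44.7 TPM in WT mice 1 to 4. The groups overlapped over most of their range (log2 difference 0.17, SE 0.19). The Psmb8 difference was 0.04 (SE 0.16) without tubule 1 of MUT mouse 1, and 0.47 (SE 0.26) without the 6 libraries. Psmb9 was at 39.2, 28.0, 17.8 and 28.0 TPM in MUT mice, against 24.2, 18.5, 17.0 and 23.2 TPM in WT mice. MUT mice 1, 2 and 4 lay above every WT mouse, while MUT mouse 3 lay among them (log2 difference 0.38, SE 0.20). The Psmb9 difference was 0.23 (SE 0.19) without MUT mouse 1, 0.29 (SE 0.16) without its tubule 1 and 0.67 (SE 0.23) without the 6 libraries, where the adjusted limma p was 0.903. With those libraries left out, WT mice 3 and 4 kept a single tubule each, the lowest of that mouse for both genes. In these tubules Psmb9 was at 11.6 and 16.2 TPM and Psmb8 at 29.2 and 27.2 TPM.

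Psmb10 went the other way from Psmb9 between genotypes. It was at 68.0, 49.3, 47.5 and 53.3 TPM in MUT mice, against 65.2, 62.8, 60.6 and 58.4 TPM in WT mice. MUT mouse 1 was the highest of all 8 and the other MUT mice were below every WT mouse (log2 difference -0.20, SE 0.10). The Psmb10 difference was -0.30 (SE 0.06) without MUT mouse 1, -0.25 (SE 0.07) without its tubule 1 (adjusted limma p 0.795) and -0.12 (SE 0.13) without the 6 libraries. The constitutive partners were level by comparison. Psmb5 was at 305, 315, 313 and 339 TPM in MUT mice, against 312, 346, 327 and 303 TPM in WT mice, and the groups overlapped throughout. Psmb6 averaged 579 ± 10.4 TPM in MUT mice and 608 ± 27.1 TPM in WT mice, and Psmb7 135 ± 4.00 TPM in MUT mice and 130 ± 5.47 TPM in WT mice (SD, n = 4 each).

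Tubules of the same mouse differed in the inducible subunits, with the widest range in Psmb8 and Psmb9 of MUT mouse 1. In MUT mouse 1, Psmb8 was at 140, 44.9 and 44.0 TPM in tubules 1 to 3, Psmb9 at 62.8, 25.3 and 29.5 TPM, and Psmb10 at 91.4, 57.7 and 54.9 TPM. Psmb5 was at 299, 304 and 312 TPM in the same tubules, so tubule 1 was high for the inducible subunits and the lowest of the 3 for Psmb5. In MUT mouse 4, Psmb8 was at 89.7, 43.0 and 52.2 TPM. The highest WT tubule for Psmb8 was tubule 2 of WT mouse 1, at 66.9 TPM, and the lowest of all tubules was tubule 1 of WT mouse 2, at 27.1 TPM.

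**Figure D4:**
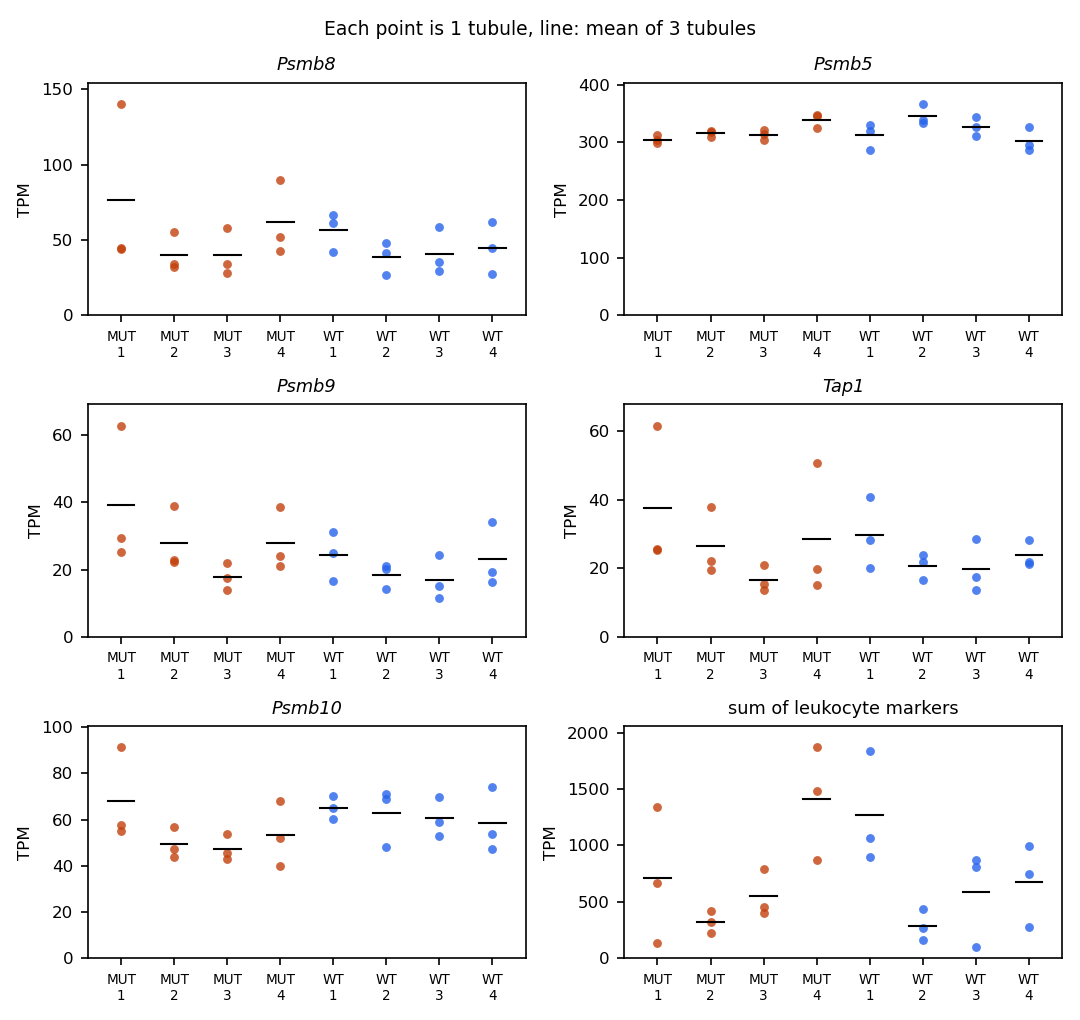
TPM in each of the 24 tubules of Psmb8, Psmb9, Psmb10, Psmb5, Tap1 and the sum of 21 leukocyte markers, with 4 MUT mice left of 4 WT mice and a line at the mean of 3 tubules. Tubule 1 of MUT mouse 1 is the highest for Psmb8 (140 TPM), Psmb9 (62.8 TPM), Psmb10 (91.4 TPM) and Tap1 (61.6 TPM), while Psmb5 is level.

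The inducible subunits moved together from tubule to tubule, as described by Pearson's r of log2(TPM + 1) over 24 tubules, which share mouse and library. Psmb8 and Psmb9 had r = 0.865, Psmb8 and Psmb10 0.759, and Psmb9 and Psmb10 0.594 (Spearman's rho 0.817, 0.697 and 0.497). For deviations from each mouse's mean these were 0.929, 0.914 and 0.878, and without tubule 1 of MUT mouse 1 they were 0.795, 0.666 and 0.437. With the 7 constitutive beta subunits, by contrast, Psmb8 had a median r of 0.022, Psmb9 of -0.006 and Psmb10 of 0.025.

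Among the other members, the interferon-inducible activator subunits Psme2 and Psme1 came nearest to Psmb8 and Psmb9, and Psme2 but not Psme1 came nearest to Psmb10. Psme2 had r = 0.554 with Psmb8, 0.490 with Psmb9 and 0.590 with Psmb10, and Psme1 had 0.456, 0.481 and 0.450. Without tubule 1 of MUT mouse 1, where Psme2 was at 243 TPM, those of Psme2 were 0.321, 0.244 and 0.433. Psmd9, a chaperone of base assembly, had r = 0.586 with Psmb10, and 0.667 for deviations within mice.

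The genes most like each inducible subunit were ranked by r out of 15012 other tested genes. For Psmb9 the nearest was Tap1, its head-to-head neighbour on chromosome 17, with r = 0.891 (Spearman's rho 0.846, and r = 0.844 without tubule 1 of MUT mouse 1). It was followed by Iigp1, Gbp6, Irgm2 and Igtp, which encode interferon-inducible GTPases, with 0.888, 0.883, 0.881 and 0.877. For Psmb8 the nearest were Psmb9, Iigp1 with 0.862, Tap2 with 0.859, Gbp6 with 0.849 and Tap1 with 0.846. For Psmb10 they were Tapbpl, a peptide editor related to tapasin, with 0.806, then Psmb8 with 0.759 and Tap1 with 0.741, and Tap2 was among the 5 nearest with 0.718. Tap1 and Tap2 are on the list of 13 interferon and MHC class I genes, and the other names follow from the values.

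**Figure D5:**
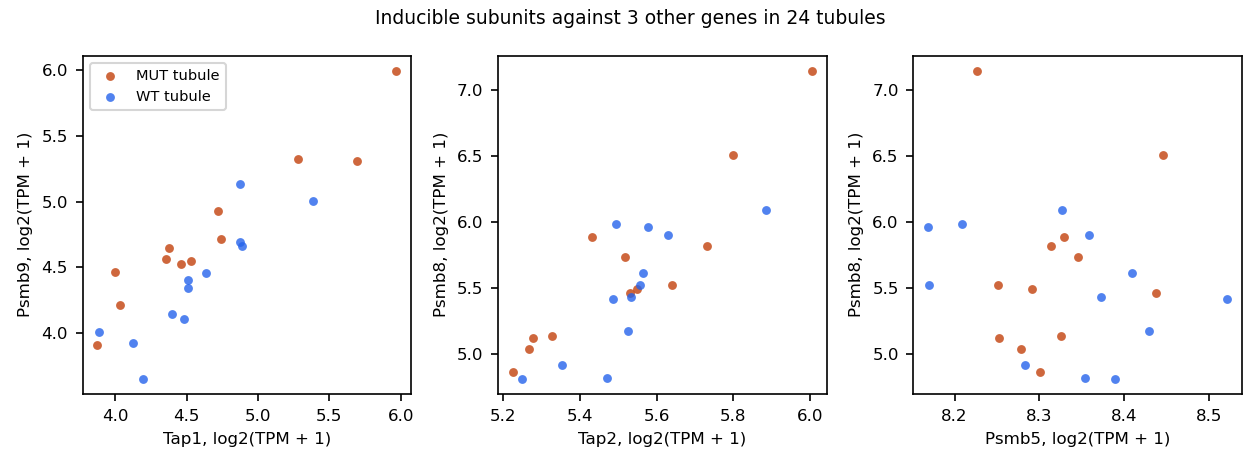
Log2(TPM + 1) of Psmb9 against Tap1 (r = 0.891), of Psmb8 against Tap2 (r = 0.859) and of Psmb8 against Psmb5, 1 point per tubule, MUT and WT in different colours. The first and second panels rise together from low to high in both genotypes, and in the third the tubule highest in Psmb8 is not high in Psmb5.

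Over the whole list of 13 interferon and MHC class I genes, the median r was 0.689 with Psmb8, 0.646 with Psmb9 and 0.534 with Psmb10, against medians of -0.016, 0.005 and -0.004 over all tested genes. Without tubule 1 of MUT mouse 1 the list medians were 0.486, 0.557 and 0.386. Calr and Pdia3, chaperones that also serve proteins other than MHC class I, stood apart, with r = -0.256 and -0.235 with Psmb8. Between genotypes 9 of the 13 were higher and 4 lower in MUT mice, with 0 past the threshold. H2-K1, a class I heavy chain and the most abundant, averaged 819 ± 150 TPM in MUT mice and 748 ± 75.1 TPM in WT mice. B2m, the class I light chain, averaged 375 ± 46.3 TPM in MUT mice and 313 ± 57.5 TPM in WT mice, and Erap1, which trims peptides, differed by -0.07 (SE 0.08).

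The 3 tubules highest in Psmb9 were also the highest in a pair of interferon-inducible GTPases, named here after their values were seen. Iigp1 was at 86.0, 24.0 and 32.8 TPM in the first tubules of MUT mice 1, 2 and 4, and at 16.9 TPM in the highest WT tubule. Gbp2, a further such GTPase, was at 29.4, 17.7 and 15.1 TPM in those MUT tubules and at 6.33 TPM in the highest WT tubule. Psmb9 was at 62.8, 39.0 and 38.6 TPM in them, the highest values of the 24 tubules. Transcripts of interferons themselves were near 0, with Ifng at most 0.55 TPM and Ifnb1 at most 0.58 TPM in any tubule.

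Leukocyte markers moved in part with these tubules. The 21 markers summed to 131 to 1872 TPM in MUT tubules and 97.1 to 1837 TPM in WT tubules, with Cd74, an MHC class II chaperone, the most abundant at a mean of 262 TPM. The sum was 1343, 227 and 1486 TPM in the first tubules of MUT mice 1, 2 and 4. After Cd74, the highest means on the list were those of the MHC class II genes H2-Ab1, H2-Eb1 and H2-Aa, at 131, 82.6 and 74.9 TPM. The sum therefore follows MHC class II transcripts in large part and is not a count of leukocytes. Other genes on the list add to it in single tubules. S100a8 and S100a9 reached 184 and 315 TPM in MUT mouse 4, with means of 61.2 and 105 TPM over the tubules of that mouse. The highest sum, 1872 TPM, was in tubule 3 of MUT mouse 4, where Psmb8 was at 52.2 TPM and Psmb9 at 24.1 TPM. Over the 19 leukocyte markers tested, the median r was 0.394 with Psmb8, 0.245 with Psmb9 and 0.169 with Psmb10. The T cell marker Cd3e averaged 0.385 TPM and the B cell marker Cd79a 0.148 TPM. The part of leukocytes in the inducible subunit levels was not tested, and in these bulk tubules fewer cells of a type and less RNA per cell cannot be told apart.

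Constitutive members were less tied to one another than the inducible subunits were. Over the 903 pairs of the 43 constitutive members the median r over tubules was 0.148, and 72.9% of pairs were positive, against a median of 0.018 and 52.6% positive over all pairs of tested genes. The 36 pairs of base subunits had a median of 0.394, the 21 alpha pairs 0.302 and the 21 beta pairs 0.259. Lid pairs had 0.110, assembly chaperone pairs 0.123 and activator or regulator pairs 0.088. All of these pairs share libraries and the fixed TPM total.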

How the data were processed

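The authors deposited 1 table of TPM per gene for 24 libraries of polyA RNA, 1 tubule each, made with a Zymo extraction and the SMART-Seq V4 kit per the labels' protocols. RSEM 1.3.3, STAR and GRCm39 are named in the submitters' processing notes, and these sources do not state the strand handling or the annotation. The 4 summary columns of the table were not used. Of rows that share a symbol, the one with the highest mean was kept.

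TPM were transformed as log2(TPM + 1), which understates the fold of low genes, and averaged over the 3 tubules of a mouse. The 15013 genes averaging 1 TPM or more were compared by limma 3.58.1 in R 4.3.3 with a mean-variance trend and Benjamini-Hochberg adjustment at 0.05, and the fit was tested on simulated data. Exact permutation tests went through all 70 arrangements, and scipy 1.17.1 adjusted their p-values over the 3 pairs. Nothing says that mice of the genotypes were paired. Members and lists were chosen with earlier results of these data known. Named were the 4 higher and 4 lower members with the smallest p, catalytic subunits, extremes of SD and level, untested members, and of each pathway list the most abundant gene and those with the smallest p. Some genes that this rule names are not reported here.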

Additional observations from a re-analysis of the deposited data

Results flagged for a closer look

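Among 98 checks of 4 mice each, 5 had 1 mouse far from the other 3 of its genotype, and chance alone flags about 1 in 20 such groups. On the log2(TPM + 1) scale, Psmd2, a scaffold of the base, was at 7.57 in MUT mouse 4, against 7.45 to 7.47 in the other MUT mice. Psmg2, an alpha-ring chaperone, was at 5.85 in the same mouse, against 5.75 to 5.76 in the others. Psme1 was at 8.32 in MUT mouse 3, against 8.44 to 8.46 in the other MUT mice. Psmd8, a lid subunit, was at 7.88 in WT mouse 4, against 8.02 to 8.03 in the other WT mice. The log2 ratio of Psmb10 to Psmb7 was -0.998 in MUT mouse 1, against -1.46 to -1.40 in the other MUT mice.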

How the results depend on the processing

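Under all 19 other settings 0 members passed the threshold, and 0 to 4 had an unadjusted limma p under 0.05. The median log2 difference of the members ran from -0.035 to -0.001 and the number higher in MUT mice from 12 to 22. The count of members with an SD between mice below the all-gene median stayed at 43 in the 17 settings that give one. Psmb5 changed direction without WT mouse 2 (0.020) and without MUT mouse 1 (0.004), within a range of -0.047 to 0.020 over the leave-outs of 1 mouse. Over all settings the difference of Psmb8 ran from 0.04 to 0.47, that of Psmb9 from 0.23 to 0.67 and that of Psmb10 from -0.30 to -0.12.

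With the mouse number as a replicate block 0 members passed the threshold, 17 were higher in MUT mice and 1 had an unadjusted p under 0.05. Same-numbered mice did not deviate together over the tested genes (r from -0.04 to 0.02). That cannot show whether they shared a litter or a day, and the numbers were not taken as pairs in the main fit. With the mouse as a random effect over 24 libraries, 1 of all tested genes passed and no member did, and no pair ratio was computed. Leaving out the 6 libraries high in other cell types, or tubule 1 of MUT mouse 1, was chosen after seeing the data. Depth, littermates and dissection days are unknown, 4 mice per genotype limit what could be called, and TPM shows shares of RNA and not amounts per cell.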
